A study of Homo sapiens with 16 samples.

Results

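Genes of protein folding, protein degradation and stress signalling in the endoplasmic reticulum (ER) were followed on 16 Illumina HumanHT-12 arrays of LNCaP-1F5 cells. The 34 genes were taken as a list of symbols: 18 chaperones and folding enzymes, 8 genes of ER-associated degradation and 8 stress regulators. Each gene was read from its best detected probe, and 31 of the 34 were measured in each of 2 sets of arrays, among 9028 tested genes of the DHT set and 10999 of the DEX set. PDIA3 and ERN1 each had 1 probe, detected on 0 of 8 arrays of either set, so that their levels stayed unknown. No probe carried HERPUD1 as its single symbol in the annotation used here, and it was not analysed here.

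LNCaP-1F5 is a clone of the human prostate cancer line LNCaP into which a rat glucocorticoid receptor was introduced. Per the labels, cells transfected with a pool of siRNAs against the pioneer transcription factor FoxA1 (titled siFoxA1) and parental cells spent 3 days in charcoal-stripped medium. Hormone or vehicle was then given for 24 hours. In the DHT set (array version 3), the groups were DHT siFoxA1, DHT parental, vehicle siFoxA1 and vehicle parental, with the androgen 5a-dihydrotestosterone (DHT) at 100 nM. In the DEX set (array version 4), they were DEX siFoxA1, DEX parental, vehicle siFoxA1 and vehicle parental, with the synthetic glucocorticoid DEX at 100 nM. Each group held 2 arrays, replicates 1 and 2, described by the submitters as biological duplicates, and this number limits the precision of every value. The arrays of a set carry a single chip number, so that chip, array version and set cannot be told apart, and levels were not compared between sets.

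The titles did not describe the arrays of either set fully. In the DHT set, FOXA1 was at 12.24 to 12.37 on the 4 arrays with a DHT title and 13.54 to 13.68 on the 4 with a vehicle title, whatever the siFoxA1 title. FKBP5, a gene induced by androgens and glucocorticoids, was at 12.14 to 13.16 on the arrays of replicate 2 there and 7.76 to 8.22 on those of replicate 1. In the DEX set FKBP5 was at 13.80 to 13.89 on siFoxA1 arrays and 9.21 to 9.39 on parental arrays. FOXA1 there was at 10.84 on both siFoxA1 arrays of replicate 2, 12.65 and 12.67 on those of replicate 1, 12.09 and 12.17 on parental arrays of replicate 2, and 13.36 on both of replicate 1. Over all genes, every array of both sets (8 of 8 each) correlated best with one of its own replicate number, and 0 of 8 with the other array of their labelled group. In the DHT set the nearest array shared the hormone title for 8 of 8 arrays and the siFoxA1 title for 0. In the DEX set it shared the siFoxA1 title for 8 of 8 and the hormone title for 0. Every direction below is therefore a direction between titles or replicate numbers, no array was moved, and the members were described by hormone title, by siFoxA1 title and by replicate number. All 8 luminal epithelial markers checked (such as KRT8, EPCAM and HOXB13) were detected on every array. Of 13 markers of basal, fibroblast, endothelial and blood cells, VWF and CD68 were detected on at least 2 arrays of the DHT set, as were COL1A1, CD68 and HBB among those of the DEX set. Only 2 of the 3 basal markers had a probe in each set. Detected probes numbered 11216 to 11940 on DHT arrays and 11912 to 12881 on vehicle arrays of the DHT set, and 15933 to 17168 over the DEX set.

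Secreted and membrane proteins fold in the ER with the help of HSPA5 (BiP), its co-chaperones, the lectin chaperones CALR and CANX, and disulfide isomerases. Proteins that fail to fold are moved back to the cytosol and degraded. When unfolded proteins build up, the sensors ERN1 (IRE1), EIF2AK3 (PERK) and ATF6 start the unfolded protein response. It raises chaperone and degradation genes through ATF6 and spliced XBP1, and through ATF4 it raises DDIT3 (CHOP) and PPP1R15A (GADD34). Luminal prostate cells secrete large amounts of protein and so carry a steady folding load.

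The DNA element by which ATF6 and XBP1 act on many of these genes, the ER stress element (ERSE), is shown first. It holds a CCAAT box, any 9 bases, and a CCACG box. RefSeq promoter windows (GRCh38.p14, 250 bases before to 50 after each gene's start) were matched for 32 of the 34 genes, not DERL1 or PDIA3. Searched on both strands, the element stood in windows of 8 of these 32 genes (25%), against 25 of 27305 genes (0.0916%). Because the element was chosen as one that acts on genes of this list, the higher share is not a finding of these data. Written in the direction of the element, with both boxes in capitals, the matches were:
HSPA5 (chr9:125241391-125241409): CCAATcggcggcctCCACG
HSP90B1, distal element (chr12:103930216-103930234): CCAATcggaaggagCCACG
HSP90B1, proximal element (chr12:103930321-103930339): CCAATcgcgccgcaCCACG
CALR (chr19:12938384-12938402): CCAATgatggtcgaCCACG
CANX (chr5:179698778-179698796): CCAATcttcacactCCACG
PDIA6 (chr2:10812853-10812871): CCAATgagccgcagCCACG
CRELD2 (chr22:49918554-49918572): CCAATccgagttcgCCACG
ERO1B (chr1:236282183-236282201): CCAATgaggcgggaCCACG
XBP1 (chr22:28800603-28800621): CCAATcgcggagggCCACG

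A second form, ERSE-II, with an ATTGG box, any 1 base, and a CCACG box, was looked up after the first had been seen. Its windows included HYOU1, HERPUD1 and SDF2L1 (3 of 32 genes, against 19 of 27305). As for the first form, the higher share is not a finding of these data. No member held both forms. With both boxes in capitals they were:
HYOU1, distal element (chr11:119057380-119057390): ATTGGaCCACG
HYOU1, proximal element (chr11:119057274-119057284): ATTGGaCCACG
HERPUD1 (chr16:56932025-56932035): ATTGGgCCACG
SDF2L1 (chr22:21642114-21642124): ATTGGtCCACG

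Full windows are given of HSPA5, CANX, PDIA6 and HSP90B1, members with the ERSE that differed between titles in at least 1 set (described below). Up to 4 were to be printed, and CRELD2, which also holds the ERSE and differed by siFoxA1 title in the DEX set, was left out. The printed windows run 5′ to 3′ in the direction of the gene, with the ERSE boxes in capitals. The proximal HSP90B1 element lies against the gene, so that it appears there as its reverse complement, as would those of CALR, CRELD2 and ERO1B. The CANX window is the first listed of 4 (3 of the 4 hold the match), and that of PDIA6 1 of 2. A match in these letters is a description and does not show that a factor was bound.
HSPA5 (chr9:125241294-125241593, minus strand): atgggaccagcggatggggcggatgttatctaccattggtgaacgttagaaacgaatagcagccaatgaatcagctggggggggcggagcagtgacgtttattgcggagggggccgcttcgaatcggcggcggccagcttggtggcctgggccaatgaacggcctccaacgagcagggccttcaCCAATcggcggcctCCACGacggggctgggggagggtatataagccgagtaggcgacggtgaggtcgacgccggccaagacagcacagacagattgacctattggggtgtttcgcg
CANX (chr5:179698679-179698978, plus strand): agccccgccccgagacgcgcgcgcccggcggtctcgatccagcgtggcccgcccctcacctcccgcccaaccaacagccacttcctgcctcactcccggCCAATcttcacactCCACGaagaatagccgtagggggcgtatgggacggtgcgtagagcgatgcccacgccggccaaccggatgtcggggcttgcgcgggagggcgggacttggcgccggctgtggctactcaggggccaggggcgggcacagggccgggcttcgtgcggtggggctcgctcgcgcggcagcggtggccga
PDIA6 (chr2:10812736-10813035, minus strand): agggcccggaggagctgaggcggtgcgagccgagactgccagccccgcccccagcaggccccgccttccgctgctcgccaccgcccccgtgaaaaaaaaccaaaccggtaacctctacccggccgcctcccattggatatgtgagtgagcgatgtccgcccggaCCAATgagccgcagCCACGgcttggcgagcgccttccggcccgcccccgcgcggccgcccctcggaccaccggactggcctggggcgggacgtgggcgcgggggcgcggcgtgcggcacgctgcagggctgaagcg
HSP90B1 (chr12:103930160-103930459, plus strand): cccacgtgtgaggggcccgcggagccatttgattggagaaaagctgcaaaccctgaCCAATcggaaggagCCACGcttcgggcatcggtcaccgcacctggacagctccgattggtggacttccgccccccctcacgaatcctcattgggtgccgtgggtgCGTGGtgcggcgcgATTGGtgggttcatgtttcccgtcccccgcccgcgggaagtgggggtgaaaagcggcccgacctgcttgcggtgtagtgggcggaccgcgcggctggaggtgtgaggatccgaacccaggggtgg

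Between the DHT and vehicle titles of the DHT set, the main ER chaperone HSPA5, CANX, 2 disulfide isomerases, DDIT3 and PPP1R15A were higher on the DHT arrays, while CREB3L4 and PDIA5 were lower. Of 31 members, 8 were higher and 2 lower by limma at an adjusted p under 0.05 (32.3%), against 19.7% of all genes tested. Counted upwards alone, the members called made 25.8% and all genes 8.93%. By role, 5 of 17 chaperones rose and 1 fell, 1 of 7 degradation genes rose, and 2 of 7 stress regulators rose and 1 fell. The median difference was 0.14 over the members and −0.02 over all genes. All differences are on the log2 scale of normalized array signal. The array signal cannot tell fewer expressing cells from less RNA per cell.

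In the values by array of the DHT set, the siFoxA1 title stands before the parental title in each pair. DDIT3, the pro-apoptotic transcription factor CHOP, was at 10.62 and 10.77 on the DHT arrays of replicate 2 and 10.71 and 10.71 on those of replicate 1, against 10.07 and 9.63 on the vehicle arrays of replicate 2 and 9.21 and 9.13 on those of replicate 1. All 4 DHT arrays lay above all 4 vehicle arrays, with a difference of 1.20 ± 0.15 (± SE, n = 4 against 4 arrays; limma adjusted p = 0.000449), or 2.29-fold. PPP1R15A, the regulatory subunit that directs a phosphatase to eIF2 alpha, was higher by 0.66 ± 0.16 (adjusted p = 0.0144). Its DHT arrays read 7.74 and 8.07 (replicate 2) and 7.26 and 7.62 (replicate 1), and its vehicle arrays 6.92 and 7.28 and then 6.87 and 6.99, so that 1 DHT array fell just below the highest vehicle array.

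HSPA5, the Hsp70 chaperone of the ER lumen, read 9.12 and 8.99 on the DHT arrays of replicate 2 and 8.76 and 8.79 on those of replicate 1, against 8.53 and 8.33 on the vehicle arrays of replicate 2 and 7.54 and 7.66 on those of replicate 1. The titles did not overlap, and the difference was 0.90 ± 0.15 (adjusted p = 0.00232). The membrane lectin chaperone CANX was higher by 0.80 ± 0.14 (adjusted p = 0.00245), at 9.92 to 10.18 on DHT arrays and 8.84 to 9.59 on vehicle arrays. Its other detected probe differed in the same direction, by 0.92. The disulfide isomerase PDIA6 was higher by 0.52 ± 0.10 (adjusted p = 0.004), at 11.14 and 10.78 (replicate 2) and 11.09 and 10.87 (replicate 1) on DHT arrays, against 10.53 and 10.39 and then 10.51 and 10.39 on vehicle arrays. Between replicate numbers it hardly differed (−0.0026 ± 0.097).

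PDIA4, another disulfide isomerase, was higher by 1.04 ± 0.22 (adjusted p = 0.00827), at 9.37 and 9.19 on the DHT arrays of replicate 2 and 9.95 and 9.80 on those of replicate 1, against 8.78 and 8.88 on the vehicle arrays of replicate 2 and 8.47 and 8.03 on those of replicate 1. DNAJB9, a J-domain co-chaperone of HSPA5, was higher by 0.97 ± 0.19 (adjusted p = 0.0059). It was at 11.18, 11.46, 10.96 and 10.88 on the DHT arrays, and at 10.71 and 10.89 on the vehicle arrays of replicate 2 but 9.84 and 9.18 on those of replicate 1. Its lowest DHT array and its highest vehicle array thus met. EDEM1, which hands misfolded glycoproteins to degradation, was higher by 0.40 ± 0.12 (adjusted p = 0.0398), a call lost in 6 of the 8 fits that left out 1 array, namely all but those without the vehicle parental array of replicate 1 or the vehicle siFoxA1 array of replicate 2 (adjusted p up to 0.167 over all alternatives).

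CREB3L4, an ER-anchored transcription factor first described as androgen-induced in prostate cells, fell by 1.05 ± 0.17 (adjusted p = 0.00146). It was at 9.45 and 9.09 on the DHT arrays of replicate 2 and 8.23 and 8.28 on those of replicate 1, against 10.60 and 10.77 on the vehicle arrays of replicate 2 and 8.81 and 9.06 on those of replicate 1. The titles overlapped across replicate numbers and were apart within each of them. PDIA5 fell by 0.77 ± 0.22 (adjusted p = 0.0328), at 9.42 to 9.60 on DHT arrays and, on vehicle arrays, 10.85 and 10.92 in replicate 2 but 9.54 and 9.81 in replicate 1. Both this call and that of PPP1R15A were lost without any 1 of the 4 arrays of replicate 2 (adjusted p up to 0.226 and 0.0928 over all alternatives).

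**Figure D1:**
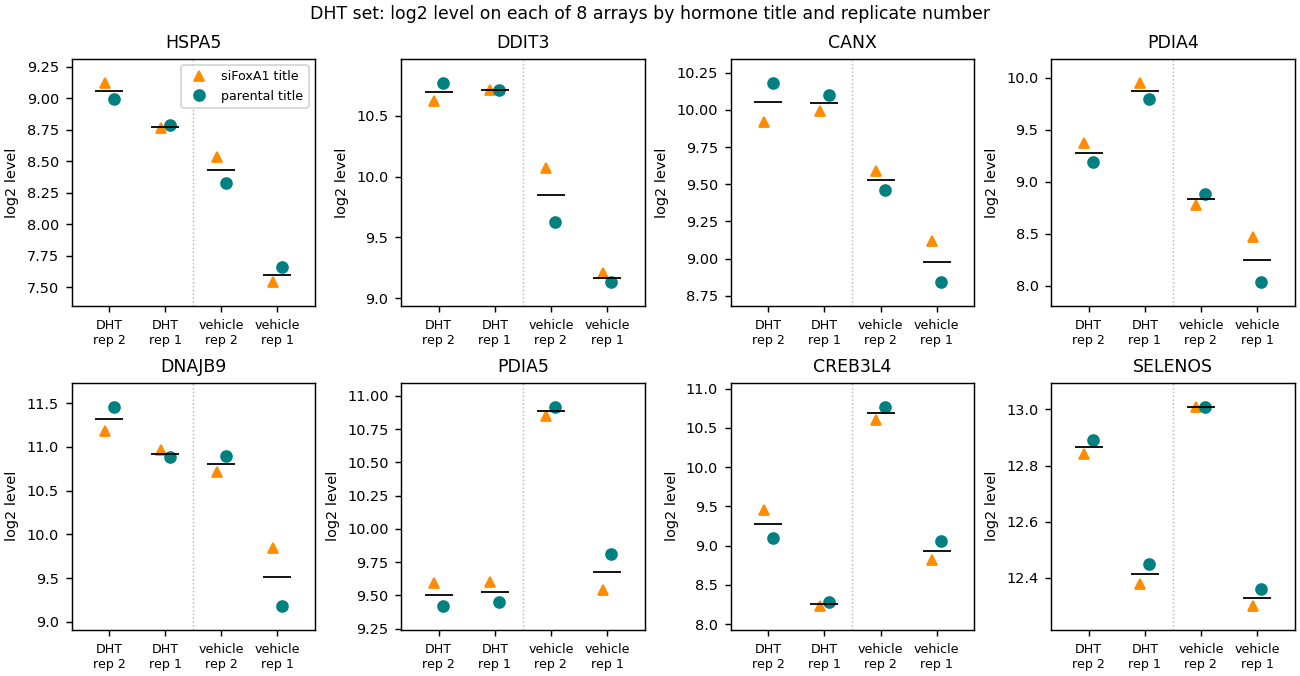
Log2 level (vertical axis) of 8 member genes on each array of the DHT set, by hormone title and replicate number (horizontal axis, rep). Triangles are arrays with the siFoxA1 title, circles arrays with the parental title, and bars the mean of each pair. The 2 symbols of many pairs lie close together, while others stand apart, such as DNAJB9 on the vehicle arrays of replicate 1 (9.84 and 9.18). HSPA5, DDIT3, CANX and PDIA4 are higher under every DHT title than under any vehicle title, and PDIA5 stands out on the vehicle arrays of replicate 2.

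The other 21 members did not pass by hormone title. Among them were XBP1 (0.02 ± 0.14), ATF6 (0.17 ± 0.11) and EIF2AK3 (−0.60 ± 0.22, adjusted p = 0.0748). EIF2AK3 was detected on 6 of 8 arrays and ERO1B on 5, on neither array of DHT siFoxA1, so that their values there are not well above background. The lumen chaperones HSP90B1 and CALR differed by 0.09 ± 0.11 and 0.14 ± 0.10, P4HB, a disulfide isomerase, by 0.14 ± 0.09 and HYOU1, the nucleotide exchange factor of HSPA5, by 0.13 ± 0.15. Without the replicate term, 3 members were called, CANX, PDIA6 and DDIT3. FOXA1 differed by −1.31 ± 0.08 between the same arrays, and its part in the members' differences was not tested.

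By siFoxA1 title, 0 of 31 members were called in the DHT set, as were 0% of all genes, by limma with or without the replicate term. At an unadjusted p under 0.05, 0 members and 454 of 9028 genes passed. The differences ran from −0.29 ± 0.16 for PPP1R15A to 0.27 ± 0.22 for DNAJC3. DHT and vehicle titles were also compared within each siFoxA1 title. Within siFoxA1 titles HSPA5, PDIA6 and DDIT3 rose and CREB3L4 fell (12.9%, against 8.64% of all genes, 3.71% higher and 4.93% lower). Within parental titles 4 members rose (HSPA5, CANX, DNAJB9 and DDIT3) and CREB3L4 fell (16.1% of members, against 8.29% of all genes, 3.79% higher and 4.5% lower). DDIT3 differed by 1.03 ± 0.22 within siFoxA1 titles and 1.36 ± 0.22 within parental titles, and HSPA5 by 0.91 ± 0.22 and 0.89 ± 0.22. These differences were not shown to differ from each other: the interaction called 0 members and 0% of all genes (0 members and 202 genes at an unadjusted p under 0.05). Without the replicate term 0 members passed within either title, and without single arrays 0 to 6 passed within siFoxA1 titles and 1 to 6 within parental titles (0 without either siFoxA1 array of replicate 1, and 1 without either DHT parental array).

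By replicate number, 6 members were higher on the replicate 2 arrays of the DHT set and 0 were lower (19.4%, against 13.3% of all genes, of which 6.37% were higher and 6.91% lower). The median difference was 0.24 over the members and −0.02 over all genes. CREB3L4 was higher by 1.38 ± 0.17 (adjusted p = 0.000445), and the replicate 2 arrays, at 9.09 to 10.77, lay above those of replicate 1, at 8.23 to 9.06. SELENOS, a selenoprotein that recruits the ATPase VCP to the ER membrane, was at 12.84 and 12.89 on the DHT arrays of replicate 2 and 13.01 and 13.01 on their vehicle counterparts. On replicate 1 it read 12.38 and 12.45 under DHT titles and 12.30 and 12.36 under vehicle titles, a difference by number of 0.56 ± 0.09 (adjusted p = 0.00217). A further SELENOS probe detected on all arrays differed by 0.50.

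DNAJC3, a co-chaperone that also restrains EIF2AK3, was higher on replicate 2 by 0.87 ± 0.22 (adjusted p = 0.0252), at 6.46 to 7.24 against 5.22 to 6.28. Its probe was detected on 3 of the 4 arrays of replicate 1, and the difference was 0.40 without background correction and 1.17 in the authors' processed values. DNAJB9 was higher by 0.85 ± 0.19, HSPA5 by 0.55 ± 0.15 and MANF, a small lumen protein of the stress response, by 0.35 ± 0.10 (adjusted p = 0.0174, 0.0377 and 0.0412). For DNAJB9 and HSPA5 the arrays of replicates 2 and 1 overlapped, and both genes also differed by hormone title. With 1 array left out, 3 to 5 members were called. The calls of DNAJC3, HSPA5 and MANF were each lost in 6 of 8 such fits: DNAJC3 held only without a vehicle siFoxA1 array, HSPA5 without a DHT parental array and MANF without a DHT siFoxA1 array (adjusted p up to 0.115, 0.146 and 0.164). That of DNAJB9 was lost without either vehicle siFoxA1 array. FKBP5 differed between the same arrays by 4.58 ± 0.19, and its part was not tested.

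**Figure D2:**
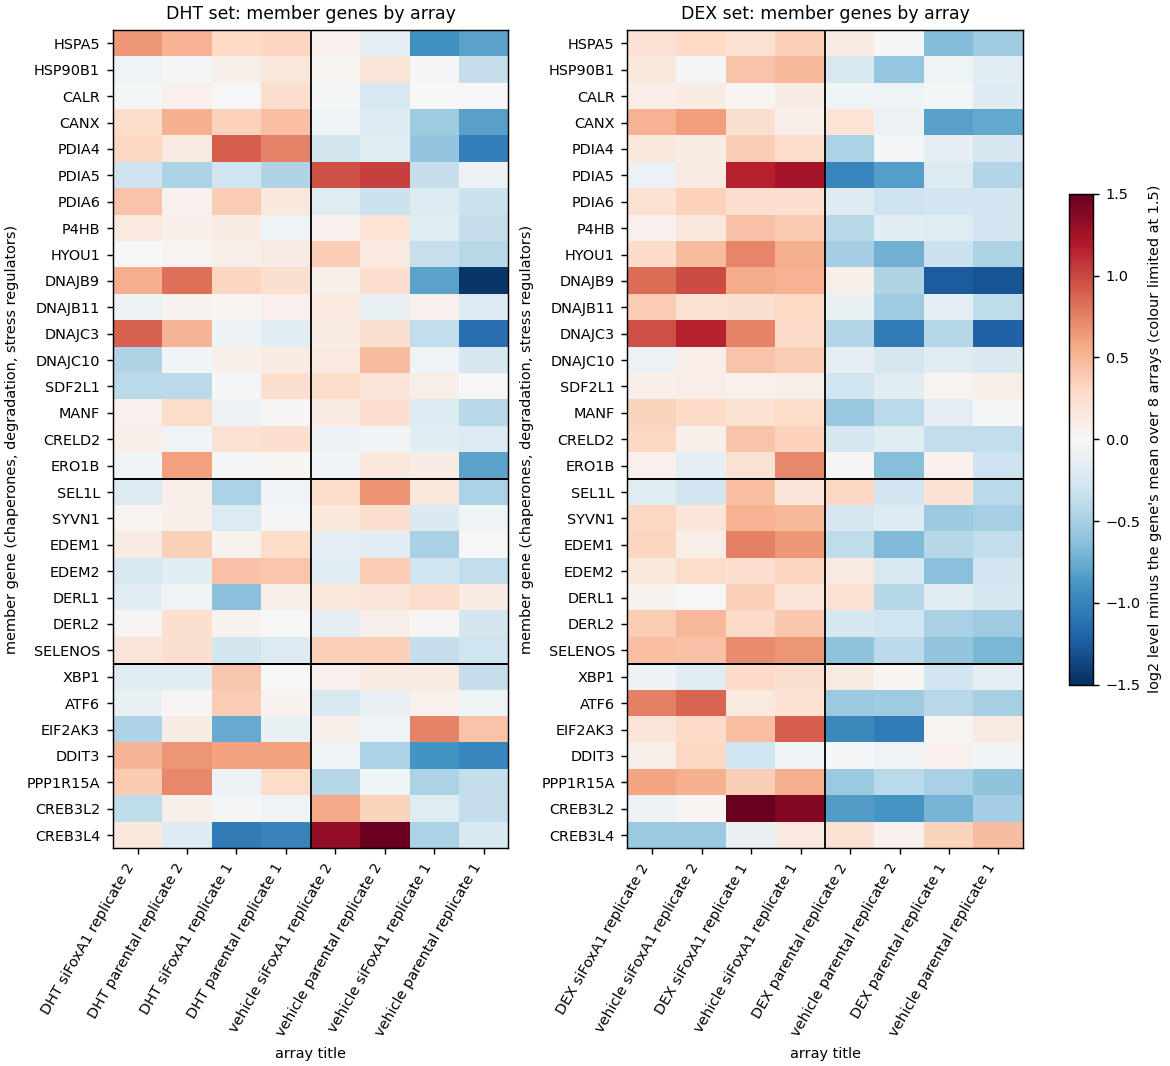
Log2 level of each measured member (rows, with lines between chaperones, degradation genes and stress regulators) on each array (columns) of both sets, less the gene's mean over the 8 arrays of its set. The line down each panel divides DHT from vehicle titles (left panel) and siFoxA1 from parental titles (right panel). In the DEX set most rows are red left of the line, while in the DHT set the rows differ in pattern.

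For 9 members of the DHT set, the difference by hormone title itself differed between replicate numbers (29% of members, against 7.24% of all genes, 3.07% positive and 4.18% negative), and in all 9 it was more negative on replicate 2. The spread behind this test is that between arrays that differ in siFoxA1 title. With 1 array left out, 3 to 9 members were called (3 without the vehicle parental array of replicate 1 or the DHT siFoxA1 array of replicate 2), and PDIA4 and PDIA5 were called in all 8 of these fits. PDIA4 differed by 0.45 on the arrays of replicate 2 and by 1.63 on those of replicate 1 (difference −1.18 ± 0.23, adjusted p = 0.00143). PDIA5 differed by −1.39 on replicate 2 and −0.15 on replicate 1 (−1.24 ± 0.21, adjusted p = 0.000244). EDEM2, a mannosidase-related degradation factor, differed by −0.30 and 0.76, DNAJB9 by 0.52 and 1.41, and DDIT3 by 0.84 and 1.55, the replicate 2 value first.

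HYOU1 (−0.23 and 0.49), SDF2L1 (−0.63 and 0.07), DNAJC10 (−0.55 and 0.25) and CREB3L2, an ER-anchored transcription factor (−0.60 and 0.23), changed sign between the replicate numbers. Seen by array, 3 of the 4 pairs of DNAJB9 lay at 10.71 to 11.46 and the vehicle pair of replicate 1 at 9.18 and 9.84. DDIT3, HSPA5 and CANX were likewise lowest in that pair. PDIA5 showed another pattern, with the vehicle pair of replicate 2 (10.85 and 10.92) above the other 6 arrays (9.42 to 9.81).

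In the DEX set, 23 of 31 members were higher on the siFoxA1 arrays and 1 was lower (77.4%, against 35.3% of all genes). Counted upwards alone, this was 74.2% of members and 15.8% of all genes. The rise took in 14 of 17 chaperones, 5 of 7 degradation genes and 4 of 7 stress regulators, with CREB3L4 the 1 member that fell. The median difference was 0.56 over the members and −0.06 over all genes. FKBP5 differed by 4.55 ± 0.08 between the same arrays and FOXA1 by −1.0 ± 0.11, and the part of either in the members' differences was not tested. Without the replicate term 14 members were called, all higher, and without any single array 20 to 25. The calls lost without that term were those of CANX, HSP90B1, HSPA5, PDIA4, PDIA5, DNAJC10, EDEM2, CREB3L2, CREB3L4 and EIF2AK3. Their limma adjusted p reached up to 0.145 (CREB3L4) over all alternatives.

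In the values by array of the DEX set, the DEX title stands before the vehicle title in each pair. SELENOS read 12.39 and 12.38 on the siFoxA1 arrays of replicate 2 and 12.65 and 12.60 on those of replicate 1, against 11.34 and 11.55 on the parental arrays of replicate 2 and 11.35 and 11.26 on those of replicate 1. The titles were well apart and differed by 1.13 ± 0.10 (adjusted p = 6.01e-06), or 2.19-fold. A further probe detected on all 8 arrays differed by 1.18, and another, detected on 6, by 0.26. DERL2, a membrane protein of the retrotranslocation machinery, was higher by 0.78 ± 0.09 (adjusted p = 4.44e-05), at 10.83 to 11.05 against 10.01 to 10.29. EDEM1 was higher by 0.92 ± 0.11, SYVN1, the ubiquitin ligase HRD1, by 0.75 ± 0.12, and EDEM2 by 0.51 ± 0.15 (adjusted p = 6.82e-05, 0.00058 and 0.0219). The EDEM2 call was lost without the vehicle parental array of replicate 2 or any of the other 3 groups' arrays of replicate 1 (value 0.31 to 0.71 and adjusted p up to 0.121 over all alternatives). DERL1 at 0.31 ± 0.12 (adjusted p = 0.0575) and SEL1L, the partner of SYVN1, at 0.08 ± 0.23 did not pass. SEL1L was detected on 4 of 8 arrays.

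HYOU1 read 10.35 and 10.54 on the siFoxA1 arrays of replicate 2 and 10.80 and 10.59 on those of replicate 1, against 9.55 and 9.34 on the parental arrays of replicate 2 and 9.74 and 9.59 on those of replicate 1. It was higher by 1.02 ± 0.10 (adjusted p = 1.53e-05), with no overlap, and its other detected probe by 0.99. DNAJB9 was at 10.39, 10.53, 10.11 and 10.07 on the siFoxA1 arrays, against 9.63 and 9.10 on the parental arrays of replicate 2 and 8.30 and 8.25 on those of replicate 1, a difference of 1.46 ± 0.15 (adjusted p = 2.79e-05), or 2.74-fold. DNAJC3 was higher by 1.57 ± 0.19 (adjusted p = 8.05e-05), at 7.07 to 7.94 on siFoxA1 arrays and 5.58 to 6.36 on parental arrays. Its probe was detected on 3 of the 4 parental arrays, and the size of the difference rested on the background correction, at 0.83 without one.

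Most chaperones of the lumen rose by less. HSP90B1 was higher by 0.53 ± 0.08, P4HB, the classical disulfide isomerase, by 0.53 ± 0.09, PDIA6 by 0.54 ± 0.09, MANF by 0.56 ± 0.10, and both CRELD2 and DNAJB11 by 0.58, ± 0.09 and ± 0.08. CANX was higher by 0.73 ± 0.13 and HSPA5 by 0.55 ± 0.15 (adjusted p = 0.000886 and 0.0157). HSPA5 was at 8.68 to 8.83 on siFoxA1 arrays and 7.82 to 8.58 on parental arrays, and its call was lost without any 1 of the 4 arrays of replicate 1 (adjusted p up to 0.130 over all alternatives). PDIA4 was higher by 0.45 ± 0.12, a call lost without the vehicle parental or the DEX siFoxA1 array of replicate 1 (adjusted p up to 0.0799 over all alternatives). DNAJC10 was higher by 0.40 ± 0.11. The other DNAJC10 probe, detected on all 8 arrays, pointed the other way (−0.12), so that this call depends on the probe. The DNAJC10 call was also lost without any 1 of the 4 arrays of replicate 1. CALR (0.18 ± 0.08), SDF2L1 (0.16 ± 0.10) and ERO1B, an oxidase of disulfide isomerases (0.43 ± 0.24), did not pass. ERO1B and SEL1L were not detected on either array of vehicle parental.

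PDIA5 read 9.19 and 9.41 on the siFoxA1 arrays of replicate 2 and 10.45 and 10.53 on those of replicate 1, against 8.30 and 8.46 on the parental arrays of replicate 2 and 9.08 and 8.85 on those of replicate 1. It was higher by 1.23 ± 0.14 (adjusted p = 5.39e-05) on siFoxA1 arrays, and it differed by −0.89 ± 0.14 (adjusted p = 0.000861) on replicate 2. The siFoxA1 arrays lay above the parental arrays throughout, and within each title the replicate 2 arrays lay below those of replicate 1.

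**Figure D3:**
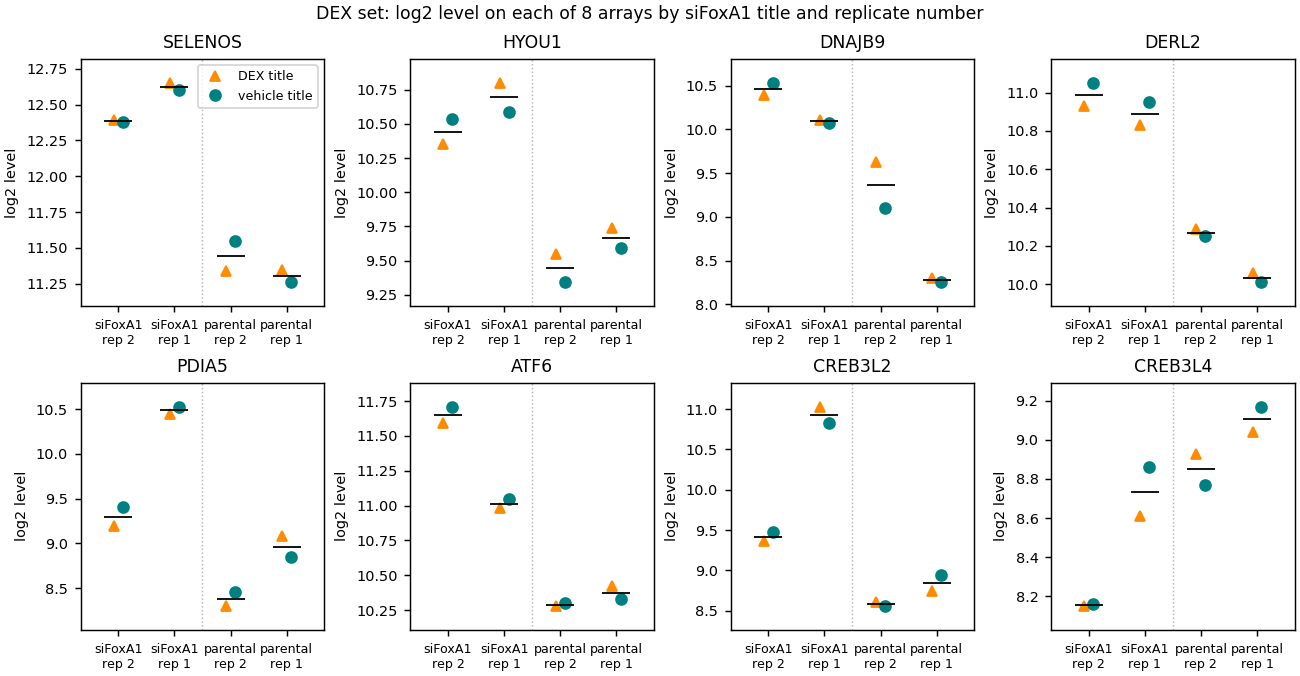
Log2 level (vertical axis) of 8 member genes on each array of the DEX set, by siFoxA1 title and replicate number (horizontal axis, rep). Triangles are arrays with the DEX title, circles arrays with the vehicle title, and bars the mean of each pair. In 7 of the panels values are higher left of the dotted line in each replicate number, CREB3L4 is lower there, and CREB3L2 and PDIA5 also fall on replicate 2.

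Among stress regulators, ATF6 was at 11.59 and 11.71 on the siFoxA1 arrays of replicate 2 and 10.98 and 11.05 on those of replicate 1, against 10.28 to 10.42 on all 4 parental arrays, a difference of 1.0 ± 0.14 (adjusted p = 0.000175). EIF2AK3 was higher by 0.91 ± 0.15 and PPP1R15A by 1.02 ± 0.15 (adjusted p = 0.000625 and 0.000329). CREB3L2 was at 9.36 and 9.48 on the siFoxA1 arrays of replicate 2 and 11.03 and 10.83 on those of replicate 1, and at 8.56 to 8.94 on parental arrays, a difference of 1.46 ± 0.21 (adjusted p = 0.000302). CREB3L4 fell by 0.53 ± 0.13 (adjusted p = 0.00676), at 8.15 to 8.86 on siFoxA1 arrays and 8.77 to 9.17 on parental arrays, which overlapped. DDIT3 (0.03 ± 0.12) and XBP1 (0.14 ± 0.13) did not pass. The other XBP1 probe, detected on all 8 arrays, differed by 0.31. Which XBP1 transcripts each probe covers was not analysed here.

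By hormone title, 0 of 31 members were called in the DEX set, as were 0% of all genes, by limma with or without the replicate term. At an unadjusted p under 0.05, 2 members and 180 of 10999 genes passed. The differences ran from −0.13 ± 0.15 for EIF2AK3 to 0.42 ± 0.19 for DNAJC3. DEX and vehicle titles were also compared within each siFoxA1 title. Within siFoxA1 titles and within parental titles alike 0 members and 0% of all genes were called (by limma, 0 and 3 members and 204 and 233 genes at an unadjusted p under 0.05), and the interaction called 0 (0 members and 219 genes unadjusted).

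By replicate number, 2 members were higher and 5 lower on the replicate 2 arrays of the DEX set (22.6%, against 24.3% of all genes, 11.2% higher and 13.1% lower), a share near that of all genes. CANX was higher by 0.64 ± 0.13 and DNAJB9 by 0.73 ± 0.15 (adjusted p = 0.00331 and 0.00506). PDIA5, CREB3L2 (−0.88 ± 0.21), EIF2AK3 (−0.76 ± 0.15), CREB3L4 (−0.42 ± 0.13) and HSP90B1 (−0.35 ± 0.08) were lower. DNAJC10 was not called from its chosen probe (−0.20), but its other probe, detected on all 8 arrays, differed by −1.28, so that this result depends on the probe. The CREB3L4 call was lost in 6 of 8 fits without 1 array and held only without a DEX parental array, and that of CREB3L2 was lost without either vehicle siFoxA1 array. EIF2AK3 was at 9.16 and 9.25 on the siFoxA1 arrays of replicate 2 and 9.42 and 9.86 on those of replicate 1, and at 8.0 and 7.92 on the parental arrays of replicate 2 against 9.01 and 9.10 on those of replicate 1. FOXA1 differed by −1.52 ± 0.11 between the same arrays, and its part was not tested.

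**Figure D4:**
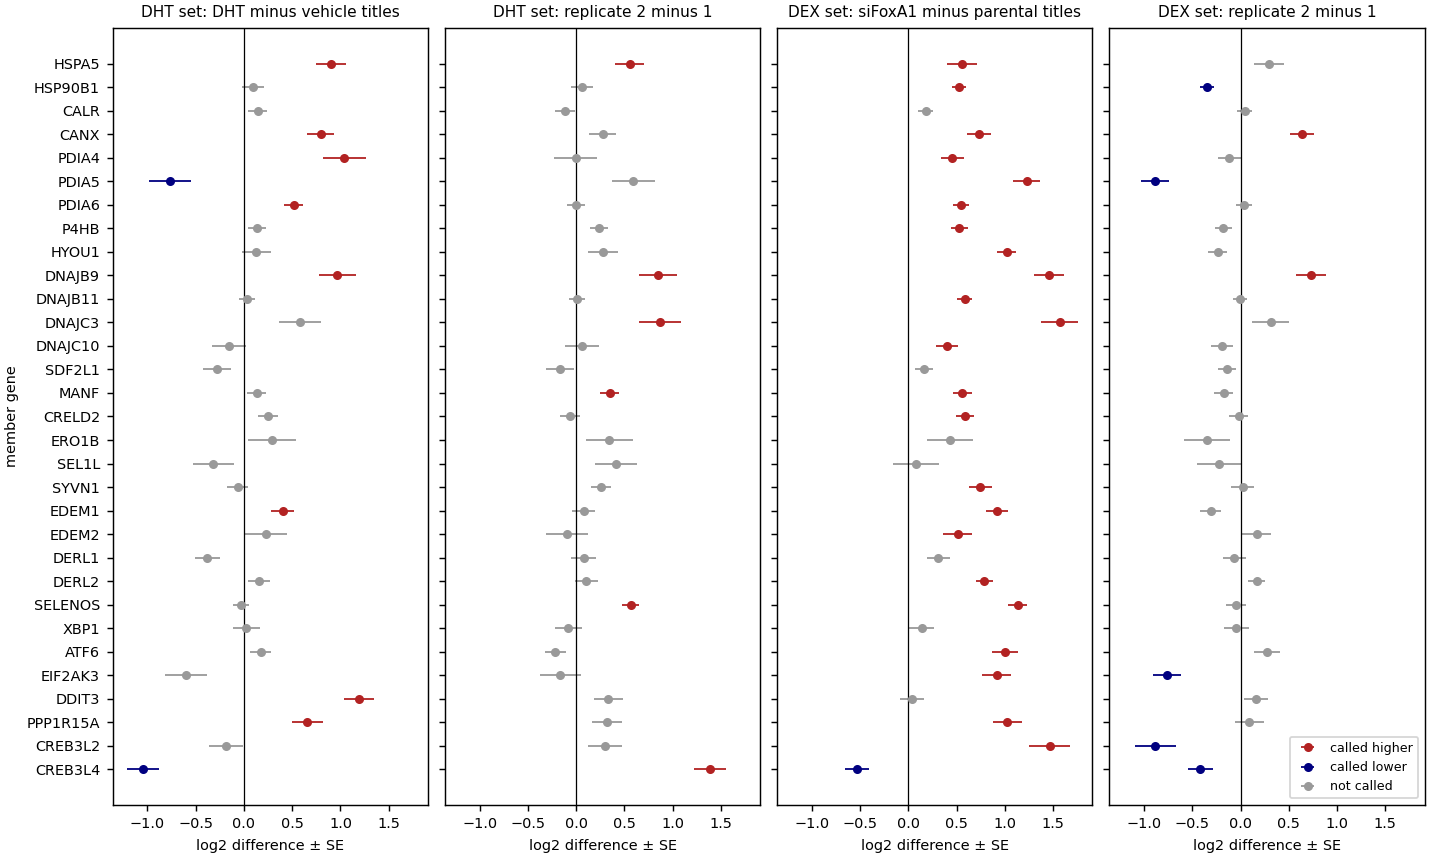
Log2 difference with its standard error (horizontal axis) for each measured member (vertical axis) in 4 comparisons of 4 against 4 arrays. Red marks genes called higher, blue genes called lower (limma adjusted p under 0.05) and grey those not called. In the comparison by siFoxA1 title of the DEX set 23 of 31 members are red and CREB3L4 is blue, while the other 3 comparisons hold 6 to 10 called members.

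In 5 members of the DEX set the difference by siFoxA1 title itself differed between replicate numbers (16.1%, against 5.09% of all genes, 2.26% positive and 2.83% negative). ATF6 differed by 1.36 on replicate 2 and 0.64 on replicate 1 (0.72 ± 0.15, adjusted p = 0.00568), and MANF by 0.79 and 0.33. CREB3L2 differed by 0.84 on replicate 2 and 2.08 on replicate 1 (−1.24 ± 0.19, adjusted p = 0.000349), SYVN1 by 0.47 and 1.02, and XBP1 by −0.21 and 0.48 (−0.69 ± 0.13, adjusted p = 0.00344). With 1 array left out 1 to 8 members were called (fewest without the vehicle siFoxA1 array of replicate 2), and only CREB3L2 was called in all 8 fits among these 5. The XBP1 difference changed sign between the replicate numbers, beside an average of 0.14 that was not called.

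Members with and without the ERSE can be set side by side, leaving out DERL1. Those without it include HYOU1 and SDF2L1, which hold the second form, ERSE-II. By siFoxA1 title in the DEX set, 5 of 8 with the element rose (median difference 0.53, from 0.14 to 0.73), and 18 of 22 matched members without it rose and 1 fell (median 0.77, from −0.53 to 1.57), where 15.8% of all genes rose. By hormone title in the DHT set, 3 of 8 with it rose (HSPA5, CANX and PDIA6, median 0.27), and 5 of 22 without it rose and 2 fell (median 0.13), where 8.93% of all genes rose. These counts are given as a description, with no test.

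Other genes of the same pathways, from a list of 112, give the setting. By siFoxA1 title in the DEX set, 18 of 32 genes of translocation and N-glycosylation rose and 1 fell (59.4%). They included SSR3 of the translocon-associated complex (2.16 ± 0.21), the channel subunit SEC61A1 (1.01 ± 0.11) and the oligosaccharyltransferase subunit RPN1 (0.78 ± 0.07, adjusted p = 5.99e-06). Of 24 other folding and redox genes 9 rose and 1 fell, among them GPX8 (0.93 ± 0.14), TXNDC11 (0.81 ± 0.12) and QSOX1 (1.55 ± 0.27). Of 21 other degradation genes 5 rose and 1 fell, with BCAP31 at 0.73 ± 0.07, EDEM3 at 0.63 ± 0.15 and UBE2G2 at −0.50 ± 0.10. Of 24 other stress response genes 4 rose and 4 fell (33.3%, near the 35.3% of all genes), with JUN at 1.33 ± 0.17, VLDLR at 1.28 ± 0.18 and NUPR1 at −0.76 ± 0.09.

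By hormone title in the DHT set 8.93% of all genes rose. Of 22 other folding and redox genes 5 rose (22.7%) and 0 fell, with the ER oxidase ERO1A at 1.12 ± 0.12 (adjusted p = 0.000134), QSOX1 at 1.07 ± 0.20 and SELENOM at 0.67 ± 0.11. Of 21 other stress response genes 2 rose (9.52%), NUPR1 (1.13 ± 0.13) and CHAC1 (1.05 ± 0.20), both induced through ATF4. Of 32 genes of translocation and N-glycosylation 4 rose (12.5%), SRPRA, SEC11C and UGGT2 among them (0.51 ± 0.12, 0.38 ± 0.10 and 0.47 ± 0.13). Of 21 other degradation genes 1 rose (4.76%), the lectin OS9 (0.66 ± 0.13). NUPR1 was thus higher on the DHT arrays of the DHT set and lower on the siFoxA1 arrays of the DEX set.

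By replicate number, 4 of the 96 measured genes of these lists were called in the DHT set, where 13.3% of all genes were, with SSR3 (1.19 ± 0.20), EDEM3 (0.99 ± 0.17) and UBE2J1 (0.89 ± 0.23) higher and ERLIN2 (−0.62 ± 0.12) lower. In the DEX set 12 of 101 were higher and 6 lower on replicate 2, where 11.2% of all genes were higher and 13.1% lower. The higher ones included QSOX1 (1.46 ± 0.27), TMX4 (0.95 ± 0.16) and SELENOM (0.62 ± 0.09), and the lower ones KDELR3 (−1.30 ± 0.23) and STC2 (−0.77 ± 0.12). Counted in both directions, both sets lay below the share over all genes.

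**Figure D5:**
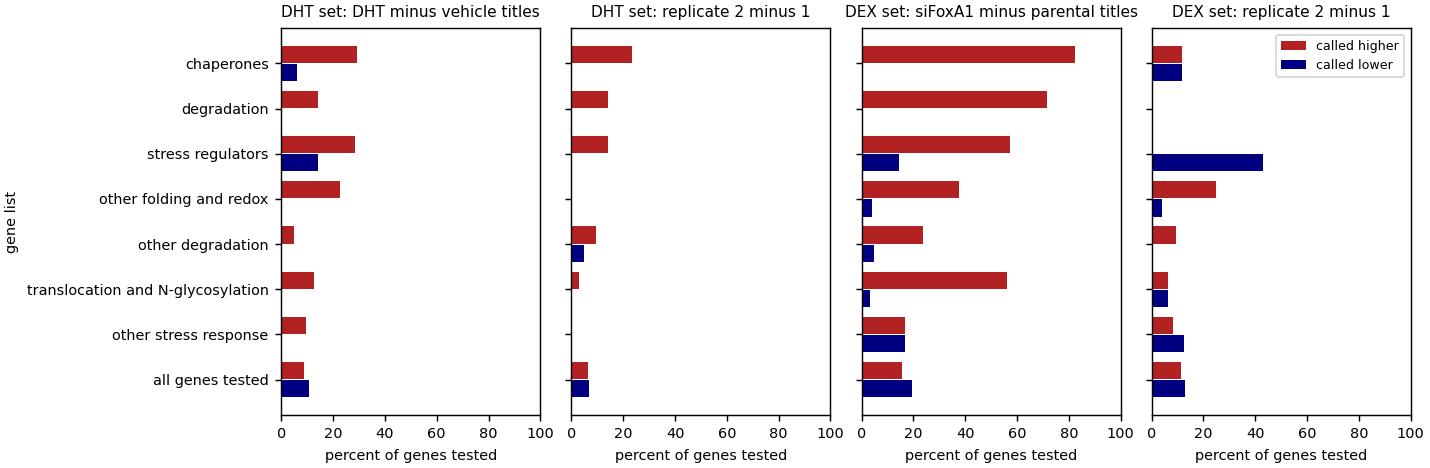
Percent of tested genes called higher (red) and lower (blue) in each list (vertical axis) and over all genes tested, in the same 4 comparisons. In the comparison by siFoxA1 title of the DEX set 82.4% of chaperones were called, all higher, against 15.8% of all genes called higher.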

How the data were processed

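Per the labels, total RNA of LNCaP-1F5 cells was hybridised to Illumina HumanHT-12 arrays, and the submitters' processing notes name BeadStudio (version not given in the sources used here). The authors deposited scanner tables of mean bead intensity and a detection p-value per probe, not normalized, and a table of processed intensity per array, whose values share 1 distribution across the arrays of a set and fall below 0 in 33.4% and 29.2% of cells, as after quantile normalization and subtraction of a background. Scanner rows were joined to probe identifiers by their ranks on all 8 arrays (48794 of 48803 scanner rows, which covers every processed row of the DHT set, 47231 of 47231 in the DEX set, and 20000 of 20000 in a simulated join).

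Each set was normalized on its own with limma 3.58.1 in R 4.3.3 (neqc: background from the detection p-values, offset 16, quantile, log2). Probes detected (p under 0.01) on at least 2 of 8 arrays were kept, 1 per gene, the one detected on most arrays and then the highest. Of the probes, 28090 and 30113 had 1 symbol, 13 and 8 several, and 20691 and 17110 none in the platform annotation. The fit held the 4 group means and the replicate number, with a variance trend and Benjamini-Hochberg adjustment over all genes of the set, and called genes at 0.05. A second fit gave the replicate by title interactions. The scripts were tested on simulated data.

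The replicate number was in the fit because it was among the factors by which the members were to be described. Arrays of the same number deviated together (correlations of deviations from group means 0.431 to 0.743 and 0.542 to 0.738 over 6 pairs per set). The duplicates are described as biological, but the titles disagreed with FOXA1 and FKBP5, so p-values measure only spread among these arrays. In the fit of group means and replicate number, that spread is how far the replicate difference varied between labelled groups (3 residual degrees of freedom per set). A replicate by title interaction, called for 9 members of the DHT set and 5 of the DEX set, therefore counts as noise there. The standard errors and p-values of those members in that fit include it. Values by array, or their range, were given for members with the largest moderated statistic of a comparison (up to 6, though not for every one) and for some other members. Of the other listed genes, up to 3 called genes per list with the largest statistic were named. The members, gene lists and rules were chosen with earlier results of these data known. Alternatives were other background corrections, scalings, filters and probe rules, no variance trend, no replicate block, the authors' processed values, and each array left out.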

Additional observations from a re-analysis of the deposited data

Results flagged for a closer look

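In 14 cases the difference between titles differed between replicate numbers by the test of that difference itself (limma adjusted p under 0.05). Each value below is the log2 difference by title on the arrays of replicate 2 minus that on the arrays of replicate 1. In the DHT set, for DHT against vehicle titles, the values were −1.24 for PDIA5, −1.18 for PDIA4, −1.07 for EDEM2, −0.89 for DNAJB9, −0.84 for CREB3L2, −0.80 for DNAJC10, −0.72 for HYOU1, and −0.70 for both SDF2L1 and DDIT3. In the DEX set, for siFoxA1 against parental titles, they were −1.24 for CREB3L2, −0.69 for XBP1, −0.56 for SYVN1, 0.72 for ATF6 and 0.47 for MANF. CREB3L2 was the member found in both sets. In the DHT set FKBP5 showed such a difference too (1.0), and in the DEX set FOXA1 did (−0.58), and their part in these values was not tested.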

How the results depend on the processing

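Of 1161 values of called members under the alternatives, 954 kept their direction and their call, 207 lost the call, and 0 changed direction. By siFoxA1 title in the DEX set, 14 members were called without the replicate block (1289 genes, against 3885 with it) in place of 24, and 20 to 25 with 1 array left out. By hormone title in the DHT set, 3 were called without the replicate block (542 genes, against 1783) in place of 10, and 7 to 10 with 1 array left out. Within siFoxA1 titles there, 0 were called without the block and 0 without the trend in place of 4, and 0 to 6 with 1 array left out. Within parental titles, 0 were called without the block and 3 without the variance trend in place of 5, and 1 to 6 with 1 array left out. The block changed no call in the DEX set by hormone title or in either interaction of hormone with siFoxA1 title, where 0 were called either way. By replicate number, the DHT set had 3 calls without the filter on dim probes and 3 without the trend in place of 6 (3 to 5 with 1 array left out), and the DEX set had 4 without the trend in place of 7 (5 to 8). For the replicate by hormone title interaction in the DHT set, 5 were called without the filter and 2 without the trend in place of 9 (3 to 9). For the replicate by siFoxA1 title interaction in the DEX set, 3 were called with median scaling, 3 without the filter and 1 without the trend in place of 5 (1 to 8). Fits without an array hold fewer samples, yet some of them called more members than the full fit. The cause of these changes was not tested for any setting. Each labelled group holds 2 arrays, dim members (DNAJC3, ERO1B, SEL1L and EIF2AK3) lay close to background on some arrays, and PDIA3, ERN1 and HERPUD1 were not measured.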

Other observations

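The members were also set side by side between the sets, which share no arrays. CREB3L4 differed by −1.05 between hormone titles and 1.38 between replicate numbers in the DHT set, and by −0.53 between siFoxA1 titles and −0.42 between replicate numbers in the DEX set. DNAJB9 was called higher in all 4 of these comparisons, at 0.97 and 0.85 in the DHT set and 1.46 and 0.73 in the DEX set. DDIT3 differed by 1.20 between hormone titles of the DHT set and by no more than 0.16 in size in these DEX set comparisons. PDIA5 differed by −0.77 between hormone titles of the DHT set, and by −0.89 between replicate numbers and 1.23 between siFoxA1 titles of the DEX set.

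Across the 31 members measured in both sets, the hormone title difference of the DHT set correlated with the replicate number difference of the DEX set at Pearson r = 0.68 (Spearman rho 0.66), and with the siFoxA1 title difference at 0.21 (rho 0.15). Over all 8795 genes measured in both sets these were 0.76 (rho 0.64) and 0.24 (rho 0.26). The replicate number difference of the DHT set correlated with the siFoxA1 title difference of the DEX set at 0.56 (rho 0.49) over all genes and at 0.09 (rho 0.26) over the members. These values describe genes, which are not independent replicates, and no cause was tested.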
